A study of Homo sapiens with 20 samples.

Results

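The complexes described here are the small-subunit initiation complexes that were pulled down through HA-tagged eIF2a from HEK 293T cells, and the comparison is between cells given the compound i14G1-12 and cells given its solvent. They were chosen by the labels: the 4 libraries of the eIF2a immunoprecipitation, of 20 libraries in the series, with all 19029 gene IDs of its count table. The cells, a transformed human embryonic kidney line whose genotype the labels give as WT, received DMSO for 1 h (2 libraries) or 5 µM i14G1-12 for 1 h (2 libraries). After formaldehyde crosslinking and RNase I digestion, the footprints held in the recovered complexes were sequenced (selective translation complex profiling). Complexes of HA-tagged eIF1, of eIF4G1 and of eIF3 were collected in the same series under both conditions, with 6, 6 and 4 libraries. How the HA tag was introduced and whether replicates came from separate cultures are not given in the sources used here, so p-values measure the spread between libraries, which may be technical.

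eIF2 is the factor that carries the initiator methionyl-tRNA, together with GTP, to the small ribosomal subunit. The complex scans the mRNA leader until a start codon is recognised, GTP is hydrolysed and eIF2 leaves, so footprints held with eIF2 come from complexes that have loaded the initiator tRNA and have not yet joined the large subunit. eIF1 guards start codon choice during scanning, and eIF4G1 is the scaffold that brings the capped mRNA to the small subunit. The series title names an inhibitor of the eIF1-eIF4G1 pair. The question of this comparison is which mRNAs changed their share of eIF2a-bound footprints after the compound. The labels write eIF2a and do not say whether this is the alpha subunit of eIF2. No unselected library was analysed here, so each value is a share of an immunoprecipitate and not an amount per mRNA.

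Genes are given by Ensembl ID. The files do not pair IDs with symbols and 0 of 19029 IDs were found in the reference table, so the 23 gene lists fixed by symbol, the check of the cell line against its markers and the printing of promoter sequences were not done.

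The depth set the limits. DMSO 1 held 269816 counts, DMSO 2 held 10033, i14G1-12 1 held 152354 and i14G1-12 2 held 244508. A count of 0, taken as a limit of 3 counts, therefore allows up to 11.1 CPM (a count scaled by the library total) in DMSO 1, 299 in DMSO 2, 19.7 in i14G1-12 1 and 12.3 in i14G1-12 2, by counting error alone. Drawn down to the depth of DMSO 2 by calculation, the 4 libraries held between 4224 and 4255 genes with a count, so DMSO 2 covered as many genes as the others did at its depth. In the remaining 16 libraries of the series that number ran from 3175 to 4667. The 470 genes that averaged at least 300 CPM over those 16 libraries are called the abundant genes. The abundant genes took 38.6% to 41% of the counts in an eIF2a library, and their median count in DMSO 2 was 6. DMSO 2 can hardly be read for the less abundant genes. Where one is named in the comparison of treatments within eIF2a, its counts are given.

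The libraries did not group by their labels in the summed level of the genes that respond to the compound elsewhere in the series. These genes were taken from the edgeR comparisons of the other immunoprecipitations: 27 genes higher in eIF1 (0.324% of those tested), 25 in eIF4G1 (0.347%) and 1 in eIF3 (0.0159%), 45 in all and 7 shared by eIF1 and eIF4G1, and 11 lower in eIF1 (0.132%). In the eIF2a libraries the summed level of the 45 genes was 26000 CPM of the library total in DMSO 1 (exact 95% binomial interval 25400 to 26600), 33000 in DMSO 2 (29600 to 36700), 30700 in i14G1-12 1 (29800 to 31600) and 25800 in i14G1-12 2 (25100 to 26400). The library labelled DMSO 2 thus lay with i14G1-12 1 at the higher level, and i14G1-12 2 lay with DMSO 1 at the lower one. ENSG00000177606 alone held 3790 CPM in DMSO 2 and 2970 in i14G1-12 1, against 471 in DMSO 1 and 601 in i14G1-12 2. This gene thus carried much of the division, and no sum was taken without it. ENSG00000204388 and ENSG00000204389, described below, had the same order. The 7 shared genes, ENSG00000177606 among them, divided the libraries the same way in their sum. That gene supplied 38 of the 68 counts in DMSO 2 and 452 of 1004 in i14G1-12 1. It supplied 127 of 882 in DMSO 1 and 147 of 782 in i14G1-12 2, so this division rests largely on 1 gene and adds little to the first. The 7 genes summed to 3270 CPM in DMSO 1 (3060 to 3490), 6780 in DMSO 2 (5270 to 8580), 6590 in i14G1-12 1 (6190 to 7010) and 3200 in i14G1-12 2 (2980 to 3430). The sum of the 11 genes that fell in eIF1 ran the opposite way. It was 5800 CPM in DMSO 1 (5520 to 6090), 4980 in DMSO 2 (3700 to 6560), 4100 in i14G1-12 1 (3780 to 4430) and 6090 in i14G1-12 2 (5790 to 6410). Here the interval of DMSO 2 reaches both pairs. The cause was not tested, and whether libraries or labels were exchanged was not tested either. If they were, the fold changes, group means and counts of called genes below would not describe the treatment. The labels were used as given throughout, and the comparison is also given without each library.

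**Figure D1:**
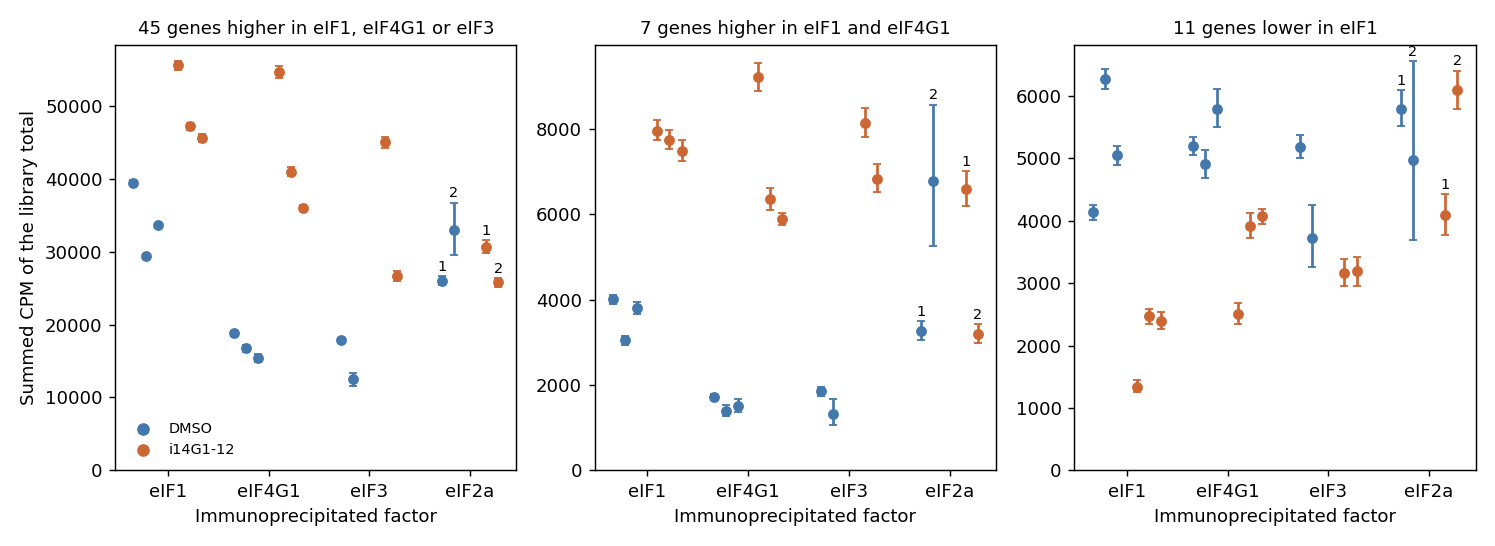
Summed level (CPM of the library total) of 3 gene lists in every library, DMSO in blue and i14G1-12 in orange, by immunoprecipitated factor, with exact 95% binomial intervals as bars; numbers beside the eIF2a points are replicate numbers. In eIF1, eIF4G1 and eIF3 the treatments do not overlap. Genes were chosen in eIF1 for all 3 plots and in eIF4G1 for the left and middle ones, which favours that separation there. Only 1 gene was called in eIF3, for the left plot. In eIF2a, DMSO 2 lies with i14G1-12 1 and DMSO 1 with i14G1-12 2 in the left and middle plots. ENSG00000177606 carries much of that division.

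By group, the 45 genes summed to 29500 ± 4940 CPM for DMSO and 28200 ± 3490 for the compound in eIF2a (SD, n = 2 each), a ratio of 0.957 between overlapping groups. The same sums gave 15200 ± 3780 and 35800 ± 13000 CPM in eIF3 (SD, n = 2 each; ratio 2.36), 17000 ± 1750 and 43900 ± 9680 in eIF4G1 (SD, n = 3 each; ratio 2.58) and 34100 ± 5080 and 49500 ± 5340 in eIF1 (SD, n = 3 each; ratio 1.45). Without ENSG00000156508, the most abundant of them in eIF2a, the eIF2a ratio was 0.953. The eIF2a DMSO libraries were thus above both eIF3 and all 3 eIF4G1 DMSO libraries in this sum, and below the i14G1-12 libraries of eIF4G1, while the eIF1 DMSO mean was higher still. Because the genes were chosen for rising in the other complexes, these ratios are a description. Of the 45 genes, 36 passed the filter on low counts in eIF2a, 28 of them with a higher and 8 with a lower estimate. With the same TMM scaling 56.6% of all genes tested and 71.7% of the abundant genes had a higher estimate. With total counts these shares were 50.6% and 50.9%. The median log2 fold change of the 36 was 0.23 beside 0.06 for all genes tested, and none was called. Of the 11 genes that fell in eIF1, all 11 passed the filter, with a median of -0.02 and 5 higher. Over the 20 of the 45 that were abundant, i14G1-12 1 lay above both i14G1-12 2 and DMSO 1 in 12 (60%), beside 32.8% of all abundant genes, and DMSO 2 lay above both in 11 (55%), beside 36.6%. Both lay above both others in 7 of the 20 (35%), beside 15.3%, so most of the 20 genes did not divide the libraries this way. i14G1-12 2 lay above DMSO 1 in 11 of the 20, beside 51.1% of all abundant genes. Of the genes that fell in eIF1, 7 were abundant. Among these, i14G1-12 1 lay below both i14G1-12 2 and DMSO 1 in 6 (85.7%), beside 44.7% of all abundant genes. DMSO 2 lay below both in 3 (42.9%), beside 53.6%, and above both in 3 (42.9%), beside 36.6%.

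The division was seen in some genes and not in others. ENSG00000177606, counted on 3257 nt and higher after the compound in both eIF1 and eIF4G1, stood at 471 CPM in DMSO 1 (127 counts; exact 95% Poisson interval 392 to 560), 3790 in DMSO 2 (38 counts; 2680 to 5200), 2970 in i14G1-12 1 (452 counts; 2700 to 3250) and 601 in i14G1-12 2 (147 counts; 508 to 707). In eIF4G1 it went from 618 ± 134 to 3720 ± 1270 CPM (SD, n = 3 each) and in eIF3 from 726 ± 143 to 4430 ± 385 (SD, n = 2 each). The eIF2a values of DMSO 2 and i14G1-12 1 were thus closer to the treated levels of those complexes, and those of DMSO 1 and i14G1-12 2 to the untreated ones. In eIF2a the fitted log2 fold change was 0.64 (SE 0.43, edgeR adjusted p = 1). Without DMSO 2 it was 1.89, resting on DMSO 1 as the single control and mainly on i14G1-12 1. The treated libraries differed, at 2970 and 601 CPM, and the second was near the 471 of DMSO 1.

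ENSG00000204388 and ENSG00000204389 followed the same order. ENSG00000204388 was at 1120 CPM in DMSO 1, 2390 in DMSO 2, 2570 in i14G1-12 1 and 1230 in i14G1-12 2. ENSG00000204389 was at 337, 997, 899 and 323 CPM in the same order, with only 10 counts in DMSO 2 (interval 478 to 1830). In eIF4G1 they went from 209 ± 22.5 to 2150 ± 590 CPM and from 54.9 ± 2.43 to 710 ± 244 (SD, n = 3 each). Even the lower pair of eIF2a libraries was thus above the DMSO libraries of eIF4G1 for both genes. In eIF1, DMSO libraries were at 1160 ± 202 CPM (926 to 1300) for ENSG00000204388, a range that holds the lower eIF2a pair, and at 203 ± 44.4 for ENSG00000204389 (SD, n = 3 each). The 2 IDs were not among the pairs of IDs with nearly equal counts.

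Other genes called in other complexes did not follow this order. ENSG00000197728 was at 671 CPM in DMSO 1, 498 in DMSO 2 (5 counts, interval 162 to 1160), 834 in i14G1-12 1 and 716 in i14G1-12 2. ENSG00000109971 was at 1550, 1400, 1500 and 1260 CPM in the same order, so that DMSO 2 lay between the treated library 2 and DMSO 1.

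**Figure D2:**
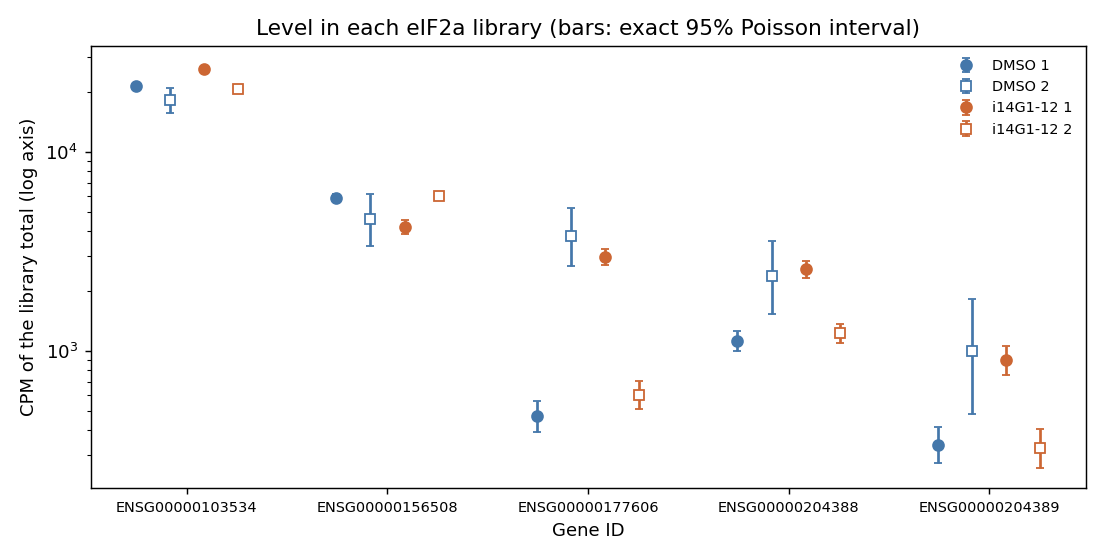
Level (CPM of the library total, log axis) of 5 genes in each eIF2a library, DMSO in blue and i14G1-12 in orange, with exact 95% Poisson intervals as bars. The 3 genes on the right are at least as high in DMSO 2 as in i14G1-12 2, and ENSG00000177606 reads 3790 in DMSO 2 against 471 in DMSO 1, while the 2 most abundant genes on the left differ less between libraries.

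A pair of genes was higher in both treated libraries than in DMSO 1, while DMSO 2 had no count of either; both are among the 45. ENSG00000120738 had 0 counts in both DMSO libraries, 7 in i14G1-12 1 (45.9 CPM, exact 95% interval 18.5 to 94.7) and 6 in i14G1-12 2 (24.5 CPM, 9.01 to 53.4). Both treated values are above the 11.1 CPM that DMSO 1 allows, though the interval of i14G1-12 2 reaches below it, and both are under the 299 that DMSO 2 allows. The gene did not pass the filter on low counts. ENSG00000162772, which had the smallest p of all genes, was at 22.2 CPM in DMSO 1 (6 counts), 236 in i14G1-12 1 (36 counts) and 61.3 in i14G1-12 2 (15 counts), with 0 counts in DMSO 2. It passed the filter on low counts only through the treated libraries, where it is high, so it was bound to show a rise if tested at all, and its p values are a description. Its log2 fold change was 2.68 (SE 0.66, edgeR adjusted p = 0.221), and 2.58 without DMSO 2 (edgeR adjusted p = 0.0429).

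Across all genes, none of the 4719 tested was called in either direction (0%; edgeR's quasi-likelihood test with Benjamini-Hochberg adjustment). There were 87 genes at an unadjusted p under 0.05 (1.84%), where 236 would be expected, and DESeq2 called 0 of 13446 genes, with 7 at an unadjusted p under 0.05. In 1593 of the 4719 genes (33.8%) DMSO 2 had no count. With a library left out, the count was 1 without i14G1-12 2, 2 without DMSO 2 (ENSG00000162772 and ENSG00000177606, both higher after the compound), 13 without DMSO 1 and 0 without i14G1-12 1. Each of these fits leaves a lone library in a group, and without DMSO 1 the only control is DMSO 2, with 10033 counts. The call of ENSG00000162772 is a description, since the gene passed the filter only through the treated libraries. For ENSG00000177606 the estimate without DMSO 2 came mainly from i14G1-12 1, at 2970 CPM against 601 in i14G1-12 2. Among genes with lower estimates the smallest p was that of ENSG00000133275, which had 33 counts in DMSO 1, 2 in DMSO 2, 5 in i14G1-12 1 and 13 in i14G1-12 2 (log2 fold change -1.43, SE 0.53, edgeR adjusted p = 1).

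In the abundant genes the fit to all 4 libraries gave narrower intervals. All 470 were tested and 469 had an estimate within a 2-fold change in either direction, with a range of log2 fold changes from -1.01 to 0.76, a median of 0.11 (0.06 over all 4719 genes) and quartiles of -0.02 and 0.25. Their standard errors ran from 0.34 to 0.46, and the 95% interval lay within a 2-fold change for 338 genes and within a 4-fold change for all 470. The median half-width of the interval was 0.74 on the log2 scale, so smaller changes were not detectable in many abundant genes at this depth. The intervals are not adjusted for the number of genes tested, so a call would take a larger change. These limits hold for the 4 libraries together and not with one left out: ENSG00000177606 was at 1.89 without DMSO 2 and ENSG00000129657 at -2.55 without DMSO 1. With total counts in place of TMM scaling, which corrects for differences in composition, the median of the abundant genes was 0.01 and that of all genes 0. With TMM 71.7% of the abundant genes were higher and with total counts 50.9%, so the direction of the whole set moved with the scaling. The TMM factor of DMSO 2 was 1.33 and those of the 3 deeper libraries were 0.909 to 0.912.

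**Figure D3:**
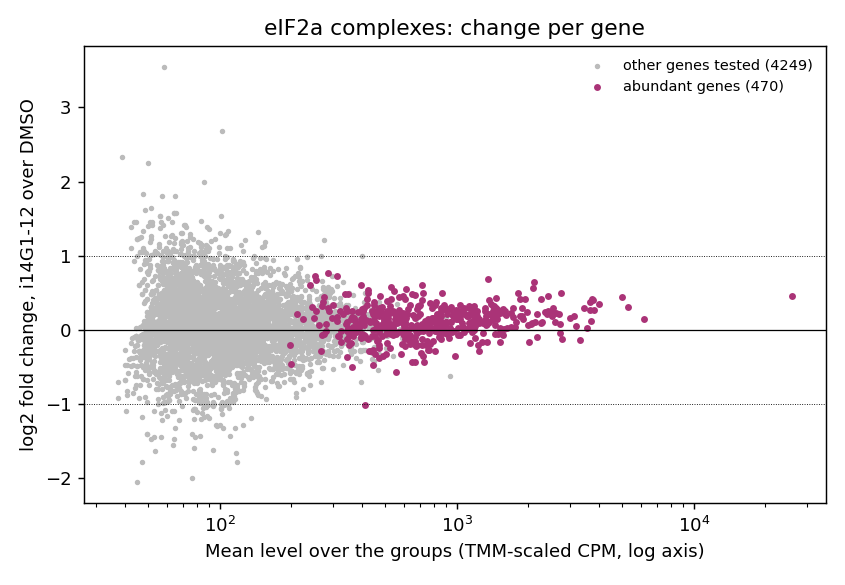
Log2 fold change of i14G1-12 over DMSO in eIF2a complexes against the mean level (TMM-scaled CPM, log axis) for 4719 genes, with the 470 abundant genes in purple and dotted lines at a 2-fold change. The abundant genes lie between -1.01 and 0.76, and the spread widens as the level falls.

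The 3 deeper libraries were close to each other over the abundant genes. Between i14G1-12 2 and DMSO 1, 99.6% of the 470 genes differed by less than 2-fold and the SD of the log2 ratio was 0.25, where counting alone gives 0.17 (Pearson's r across genes 0.967). Between i14G1-12 1 and i14G1-12 2, libraries of 1 group, the SD was 0.36 with 0.2 from counting (r = 0.935), and between i14G1-12 1 and DMSO 1 it was 0.34 with 0.2 from counting (r = 0.94). The treated library 2 was thus closer to the untreated library 1 than to the other treated library. Against DMSO 2 the SD was 0.79 to 0.84, of which counting gives 0.72. Each r is taken over genes, and genes do not count as replicates.

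Among the abundant genes, the groups did not overlap for 113 genes that were higher after i14G1-12 (24%) and for 18 that were lower (3.83%). Over all genes tested these shares were 20.4% higher and 9.37% lower, and with total counts 74 abundant genes were higher and 51 lower (15.6% and 13.9% over all genes tested). The higher genes were thus 86.3% of the separated ones with TMM and 59.2% with total counts. Leaving out each library in turn gave 135 to 372 higher and 40 to 135 lower genes, with 135 of each without DMSO 2. Fewer libraries can only add genes to the count, so this rise does not show how stable it is. The count describes these 4 libraries only. The largest estimate among the higher genes was that of ENSG00000147224, counted on 2070 nt, with 41 counts in DMSO 1, 3 in DMSO 2, 44 in i14G1-12 1 and 60 in i14G1-12 2. Its log2 fold change was 0.76 (SE 0.41, 95% interval -0.04 to 1.56, edgeR adjusted p = 1), and as CPM of the library total its groups overlap, at 152 and 299 in DMSO and 289 and 245 in i14G1-12. Among the lower genes it was ENSG00000129657, counted on 5500 nt, at 200 CPM of the library total in DMSO 1, 1200 in DMSO 2, 131 in i14G1-12 1 and 135 in i14G1-12 2 (log2 fold change -1.01, SE 0.43, edgeR adjusted p = 1). Its high value rests on 12 counts in DMSO 2, and without DMSO 1 the log2 fold change was -2.55 (edgeR adjusted p = 0.0159). That gene also varied within other groups, from 239 to 2530 CPM over the 2 eIF3 DMSO libraries.

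The gene with the most footprints was ENSG00000103534, counted on 4685 nt. It took 2.16% of counts in DMSO 1, 1.82% in DMSO 2, 2.63% in i14G1-12 1 and 2.07% in i14G1-12 2, so the groups overlap (log2 fold change 0.46, SE 0.34, 95% interval -0.21 to 1.14, edgeR adjusted p = 1). Without DMSO 1, with DMSO 2 as the single control, it was 0.97 (edgeR adjusted p = 0.0188). It was the leading gene in all 4 libraries and reached 11200 to 28200 CPM in the libraries of eIF4G1 treated with the compound, a range that holds the eIF2a values of 18200 to 26300. ENSG00000156508, counted on 3512 nt, came second by the mean, at 5880 CPM in DMSO 1, 4580 in DMSO 2, 4210 in i14G1-12 1 and 6010 in i14G1-12 2, so the treatments overlap here too (log2 fold change 0.14, SE 0.37, edgeR adjusted p = 1; -0.06 with total counts). In eIF4G1 it rose from 2540 ± 357 to 4980 ± 391 CPM (SD, n = 3 each), and all 4 eIF2a libraries were above the eIF4G1 DMSO libraries. In eIF1 it was at 5810 ± 651 CPM with DMSO and 6010 ± 1540 with the compound (SD, n = 3 each), a ratio of 1.03 with overlap, as in eIF2a. Of the 10 most abundant genes, 6 had a counted sequence of at most 600 nt, and 5 of these 10 belong to pairs of IDs with nearly equal counts, whose reads may be shared. Together the 10 leading genes of each library took 5.56% and 5.3% of counts in DMSO and 6.27% and 5.41% in i14G1-12, a difference of 0.407 percentage points (exact permutation test, 2-sided, p = 0.667, where groups of 2 can give no p below 0.333).

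Footprints were also summed by the length of the counted sequence, a class that needs no gene name. Sequences of 1 to 600 nt (487 IDs) took 10.2% of counts in DMSO 1, 10.9% in DMSO 2, 10.7% in i14G1-12 1 and 10.2% in i14G1-12 2. The group means were 10.6 ± 0.525% for DMSO and 10.5 ± 0.343% for the compound (SD, n = 2 each), and the groups overlap. In eIF1 the same class went from 12.8 ± 0.774% to 16.3 ± 0.633% and in eIF4G1 from 10.9 ± 0.836% to 14.5 ± 2.34% (SD, n = 3 each), and in both each treated library was above each DMSO library, in eIF4G1 by as little as 11.9% against 11.8%. In eIF3 it was 8.49 ± 2.64% and 9.86 ± 5.14% (SD, n = 2 each), with overlap. Whether the eIF2a difference departs from those of the others was not tested for this class. Of the longer classes in eIF2a, sequences of 601 to 1000 nt took 7.92 ± 0.549% and 8.36 ± 0.307%, those of 1001 to 2000 nt 18.6 ± 0.633% and 18.8 ± 0.312%, those of 2001 to 4000 nt 30.4 ± 0.358% and 30.6 ± 0.271%, and those over 4000 nt 32.5 ± 1.02% and 31.7 ± 0.00476%, DMSO first (SD, n = 2 each). The groups overlap in each of these but the longest class, which was at 31.8% in DMSO 1, 33.2% in DMSO 2 and 31.7% in both treated libraries, a gap that is narrow for DMSO 1.

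**Figure D4:**
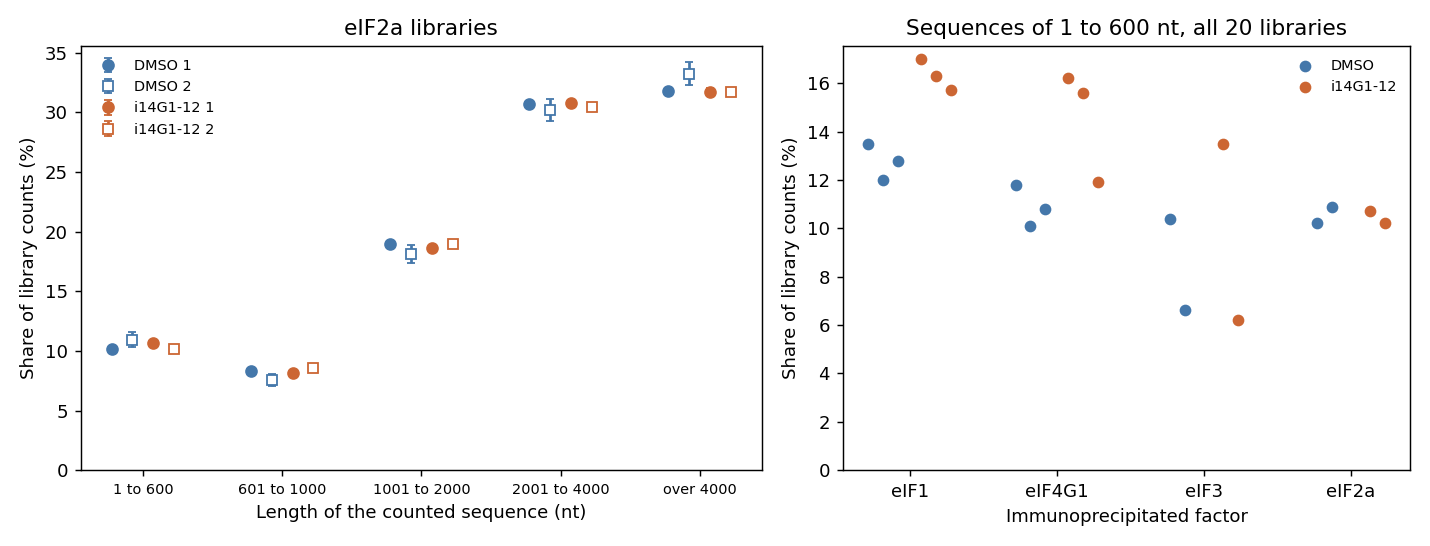
Share of library counts (%) by length of the counted sequence (nt) in the 4 eIF2a libraries with exact 95% binomial intervals (left), and share taken by sequences of 1 to 600 nt in all 20 libraries by immunoprecipitated factor (right), DMSO in blue and i14G1-12 in orange. The eIF2a libraries lie between 10.2% and 10.9% for the shortest class under both treatments, while the treated eIF1 libraries lie between 15.7% and 17% and their DMSO libraries between 12% and 13.5%.

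The difference between treatment effects was tested directly in 1 fit to all 20 libraries. No gene of 9426 had an effect in eIF2a that differed from the mean effect in the other complexes (0% by edgeR after adjustment; 229 genes had an unadjusted p under 0.05, where 471 would be expected), and none differed from eIF1, the other HA immunoprecipitation (0%; 206 at an unadjusted p under 0.05). DESeq2 was not run for these. With n = 2 in each eIF2a group and 10033 counts in DMSO 2, these tests could miss large differences. The absence of calls thus does not show equal effects. The smallest p in the first was that of ENSG00000204389, whose effect was lower in eIF2a by a log2 difference of -2.21 (SE 0.54, edgeR adjusted p = 1). Of the 45 genes that rose in another complex, 42 had the smaller effect in eIF2a, with a median difference of -0.84 beside 0.11 for all genes. The choice of these genes favours that direction, so it is a description.

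The level of eIF2a footprints was also set against the mean of the other complexes under each treatment, in the same fit. Under i14G1-12, 9 genes differed (0.0955%), 3 of them higher (0.0318%) and 6 lower (0.0637%) in eIF2a, and in DMSO 5 differed (0.053%), 4 of them higher (0.0424%) and 1 lower (0.0106%). Factor, antibody and tag cannot be told apart in these contrasts. Under i14G1-12 the largest positive difference was that of ENSG00000141385, at 115 and 105 TMM-scaled CPM in eIF2a and 7.1 to 63.1 in the other 8 treated libraries (log2 difference 1.93, SE 0.43, edgeR adjusted p = 0.0363). The next was that of ENSG00000164346, at 185 and 223 CPM against 21 to 97 (log2 difference 1.72, SE 0.38, edgeR adjusted p = 0.0343). Neither range overlaps. In DMSO, which the choice did not use, ENSG00000141385 had a difference of -0.54 and ENSG00000164346 of 1.23 (edgeR adjusted p = 0.999 for each), at levels that DMSO 2 cannot resolve. The most negative difference under the compound was that of ENSG00000120738, at 44.8 and 24.3 CPM in eIF2a and 67.3 to 504 in the others (log2 difference -2.65, SE 0.53, edgeR adjusted p = 0.0254). It had only 7 and 6 counts in the treated eIF2a libraries. This gene passed the filter mainly through treated libraries of the other complexes, where it is high, so its p is a description. ENSG00000173812 was lower under both treatments, by -2.34 (SE 0.48, edgeR adjusted p = 0.0254) and by -2.86 in DMSO (SE 0.52, edgeR adjusted p = 0.00334), but its eIF2a levels of 1320 and 1560 CPM under the compound fall inside the 801 to 282000 of the others. None of the 9 was called without eIF1 i14G1-12 a, i14G1-12 1 of eIF2a or i14G1-12 2 of eIF2a, and 4 were without eIF1 DMSO c (eIF1 libraries are lettered, since their columns do not carry the replicate numbers of the labels). The count rose to 36 without i14G1-12 1 of eIF3, 17 without i14G1-12 2 of eIF3, 14 without i14G1-12 2 of eIF4G1 and 21 without i14G1-12 3 of eIF4G1.

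In DMSO the highest difference was that of ENSG00000179029, which was at 4190 and 688 TMM-scaled CPM in the 2 eIF2a libraries and 103 to 1440 in the 8 others (log2 difference 2.5, SE 0.4, edgeR adjusted p = 0.000319), so 1 of its libraries falls inside the range of the others. ENSG00000204389, described with the genes called elsewhere, passed the test too, at 335 and 529 CPM against 49.4 to 271 (log2 difference 1.97, SE 0.4, edgeR adjusted p = 0.0139), and under i14G1-12 its difference was -0.24. No gene passed in DMSO without DMSO 1 of eIF2a, and 3 did without DMSO 2, ENSG00000204389 not among them. There were 8 without either treated library of eIF3 and 8 without DMSO 2 of eIF3.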

How the data were processed

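The deposited tables, 1 for each immunoprecipitation, hold the authors' raw counts of reads per gene in the layout of featureCounts. The submitters' processing notes name cutadapt, Trimmomatic, Bowtie, HISAT2, featureCounts and hg38; versions, and the treatment of reads with several matches, are not given in the sources used here. Per the file headers each Ensembl ID is 1 counted sequence with its length in nt. Counts within 15% of each other in every library with 200 or more, and at least 10 such libraries, marked 5 pairs of IDs, which held 2.02% to 2.47% of an eIF2a library.

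edgeR 4.0.16 in R 4.3.3 was used with filterByExpr (minimum count 10), TMM and the quasi-likelihood test, with calls at a Benjamini-Hochberg adjusted p of 0.05 or less. Standard errors are |log2 fold change| divided by the root of the F statistic. The steps were tested on simulated data. The treatment comparison used the 4 eIF2a libraries, and contrasts between complexes all 20. Replicates differed by more than counting noise (chi-square over degrees of freedom 1.65 and 1.34). Library totals were 10033 to 269816 counts; intervals cover counting error only. Same-numbered libraries did not deviate together (r = -0.122 over abundant genes), but counting noise in DMSO 2 could hide a shared deviation. Whether the libraries were paired is not known, and no pairing was used.

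Named genes were those past the threshold, of smallest p, of highest mean CPM, or of largest change among abundant genes without overlap, with few IDs printed because they have no names here. The lists of genes called in other complexes, the contrasts of eIF2a level with the other complexes and the length classes were added after the values were seen. The members and lists were chosen with earlier results of these data known.

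Alternatives were DESeq2 size factors, total counts, other filters and cutoffs, DESeq2 1.42.0, a joint fit of all libraries, a replicate block and leaving out each library.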

Additional observations from a re-analysis of the deposited data

How the results depend on the processing

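The eIF2a comparison called 0 genes under both other scalings, both other filters, DESeq2, 1 fit to all 20 libraries and the replicate block, and 0 to 13 leaving out each library, where a lone library is assumed to vary like the rest. Deviations from the group means correlated at -0.122 for the same replicate number over abundant genes and at -0.00977 over all genes tested, and a block with the numbers crossed, added after the data were seen, called 0. Counting noise in DMSO 2 weakens these correlations, so they cannot show whether the numbers pair the libraries. The numbers were not taken to pair them. Both differences between treatment effects gave 0 genes under every alternative run. The count of levels that differ in i14G1-12 (9 genes) became 41 with total counts, 21 with no filter, 23 at a minimum of 30 and 0 to 36 leaving out each library; in DMSO (5 genes) it became 8 with total counts, 8 with no filter and 0 to 8. With DESeq2 size factors the count in i14G1-12 was again 9, but without ENSG00000141385 and ENSG00000164346. Abundant genes without overlap (113 higher, 18 lower) became 28 and 4 at 1000 CPM and 455 and 115 at 100 CPM. They became 74 and 51 with total counts, and 30 were lower when abundance was set in the eIF2a libraries. Leaving out each library gave 135 to 372 higher and 40 to 135 lower, counts that fewer libraries can only raise. ENSG00000156508 turned from 0.14 to -0.06 with total counts, -0.04 at a minimum of 30 and -0.21 to 0.77 leaving out each library. Of 118 values of 10 named genes under alternatives, 110 kept direction and call. Most of these genes were chosen for a small p or for groups without overlap, which favours a kept direction. None was called in the main fit, so a kept call means staying uncalled. All 4 reversed values were those of ENSG00000156508, which was chosen by abundance. The difference in the share of the 10 leading genes (0.407 points; -0.0237 to 0.837 leaving out each library), the ratio of the summed 45 genes (0.957; 0.856 to 1.09) and the difference in the shortest length class (-0.0703 points; -0.441 to 0.301) moved by less than their spread, with either sign. The causes were not tested, except that cutoffs and left-out libraries change the genes or samples. The gene lists by symbol were not run. Depth of DMSO 2 limits every single gene.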
